A study of Mus musculus with 24 samples.

Results

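Acute-phase protein genes encode plasma proteins that the liver makes in larger amounts during inflammation or injury, and the 10 described here are Saa2, Lcn2, Orm1, Orm2, Hp, Hpx, Itih4, Serpina3n, Crp and Hamp. They were found by symbol, through the probe sets annotated to that symbol alone, and all 10 of the 10 listed genes were on the array, with 71 probe sets between them, among 23152 genes in all. The genes were chosen by name with their levels on these 24 arrays known, because arrays of one time point differed, so the spread between arrays is given below as a description with no test. A gene's level is the mean of its probe sets on the log2 scale, on which a difference of 1 is a doubling.

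Liver total RNA was taken every 3 h from ZT0 to ZT21, which makes 8 zeitgeber times (ZT, hours of the light-dark cycle). Each time had 3 samples, numbered as replicates 1 to 3, and each sample was hybridised to 1 Affymetrix whole-transcript array, which gave 24 arrays. All groups were male mice of the strain written C56bl/6J, 13 weeks old and fed chow ad libitum, with no genetic change or drug named, and the groups differed only in the time of sampling. The labels do not say that the replicates were separate animals, so a p-value speaks only of the variation among these samples, some of which may be technical.

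In the acute-phase response, cytokines released mainly by macrophages reach hepatocytes. Interleukin 6 acts through the receptor chain gp130, JAK kinases and the transcription factor STAT3, while interleukin 1 and tumour necrosis factor act through NF-kappaB and C/EBP factors, and glucocorticoids strengthen the response. Serum amyloid A and orosomucoids are among the proteins that rise most in mice, C-reactive protein is a minor reactant in this species, and albumin and transthyretin are among those that fall. Hepcidin, the product of Hamp, is raised by interleukin 6 through STAT3 and also by iron through bone morphogenetic proteins and SMAD factors.

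The 250 bases before the gene start are printed for 4 members, Saa2, Lcn2 and Orm2 because their arrays spread most, and Hamp because it ran the other way on one array. RefSeq sequences of build GRCm38.p6 were matched for 8 of the 10 members, and the stretches lie at chr7:46751583-46751832 on the plus strand (Saa2), chr2:32387740-32387989 on the minus strand (Lcn2), chr4:63362199-63362448 on the plus strand (Orm2) and chr7:30944030-30944279 on the minus strand (Hamp). They run 5′ to 3′ along the gene, and capitals mark matches to a STAT motif, TTCNNNGAA, or a C/EBP motif, TTNNGNAA, searched on both strands.
Saa2: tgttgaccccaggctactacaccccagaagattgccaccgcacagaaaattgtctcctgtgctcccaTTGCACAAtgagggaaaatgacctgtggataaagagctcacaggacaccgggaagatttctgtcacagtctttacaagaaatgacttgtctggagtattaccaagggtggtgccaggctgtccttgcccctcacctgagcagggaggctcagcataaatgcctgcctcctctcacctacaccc
Lcn2: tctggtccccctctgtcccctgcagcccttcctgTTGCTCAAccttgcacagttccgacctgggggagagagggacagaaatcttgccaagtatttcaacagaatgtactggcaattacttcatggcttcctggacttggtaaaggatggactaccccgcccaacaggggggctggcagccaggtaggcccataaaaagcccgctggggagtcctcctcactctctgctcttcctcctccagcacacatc
Orm2: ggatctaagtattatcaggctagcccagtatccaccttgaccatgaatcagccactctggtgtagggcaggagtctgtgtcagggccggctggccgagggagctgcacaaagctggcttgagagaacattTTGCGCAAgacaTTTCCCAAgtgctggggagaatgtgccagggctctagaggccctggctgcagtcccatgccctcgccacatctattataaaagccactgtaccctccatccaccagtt
Hamp: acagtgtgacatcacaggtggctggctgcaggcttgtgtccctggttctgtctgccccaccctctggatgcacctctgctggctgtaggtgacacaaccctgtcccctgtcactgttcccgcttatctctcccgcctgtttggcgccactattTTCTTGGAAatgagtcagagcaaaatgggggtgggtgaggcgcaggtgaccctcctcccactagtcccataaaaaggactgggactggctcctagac
Saa2 and Lcn2 each held 1 C/EBP match, TTGCACAA and TTGCTCAA, Orm2 held 2, TTGCGCAA and TTTCCCAA, and Hamp held 1 STAT match, TTCTTGGAA, 97 to 89 bases before its start. Among the other matched members Itih4 held a STAT match, TTCCGAGAA, 51 to 43 bases before its start, while Hpx, Serpina3n and Crp held C/EBP matches. Of 32851 promoter stretches of the same length, 7.02% held the STAT motif and 36.8% the C/EBP motif, so a C/EBP match is common by its letters alone. A degenerate NF-kappaB motif was present in Saa2, Lcn2, Itih4, Serpina3n and Crp and in 45.8% of all stretches. The glucocorticoid receptor half-site TGTTCT was present in Orm2, Serpina3n and Crp and in 16.1% of all stretches. These matches describe letters, and binding was not measured.

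On the whole table, the array medians lay between 6.44 and 6.51 and each array correlated with the rest at a mean r of 0.9802 to 0.9855, except for ZT0 replicate 1 at 0.9678. As a measure of background, the 95th percentile of 1101 olfactory receptor genes was 6.17, and all 10 members had a mean level above it. All 12 hepatocyte markers were above it as well, with a median level of 17.38. With limma and Benjamini-Hochberg adjustment over all genes, 458 genes (1.98%) had a time effect (a moderated F test of the 8 means) and 1592 (6.88%) had a 24-h rhythm. ZT0 replicate 1 stood apart for the members too, and values that rest on it are given with and without it.

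No member passed either test at an adjusted p of 0.05: 0 of 10 had a time effect by limma, beside 1.98% of all genes, and 0 of 10 had a 24-h rhythm, beside 6.88%. At an unadjusted p under 0.05 these were 1 (Crp) and 2 (Crp and Itih4), and over all genes 3330 and 4438. Adjusted p-values for the time effect ran from 0.342 for Crp to 0.987 for Hp. The differences between arrays of one time point were instead among the widest on the table for 3 members. The SD within time points, pooled over the 8 times, was 2.70 for Orm2, 2.49 for Saa2 and 1.83 for Lcn2, beside a median of 0.28 over all genes, and only 4, 5 and 18 of the 23152 genes had a larger one.

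**Figure D1:**
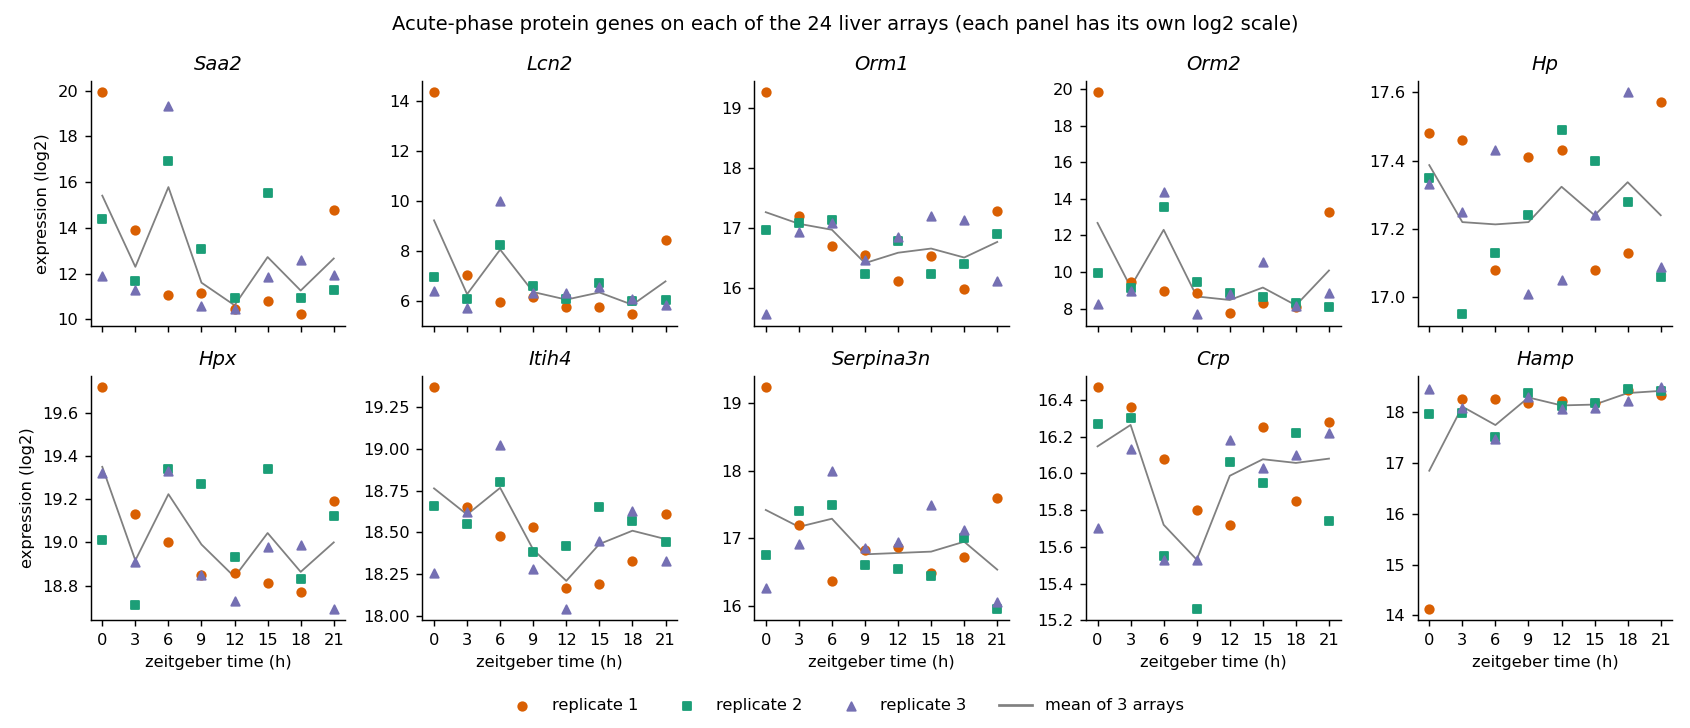
Expression (log2) of each of the 10 genes against zeitgeber time (h), with 1 point per array, a marker for each replicate number and a line through the means of 3 arrays; each panel has its own scale. ZT0 replicate 1 is the highest point for 8 genes and the lowest for Hamp, and in Saa2, Lcn2 and Orm2 the high points lie beside low points of the same time.

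Saa2 (chr7:46751833-46754313) encodes serum amyloid A 2, an apolipoprotein of high-density lipoprotein and a major reactant in mice. At ZT0 its level was 19.93, 14.38 and 11.92 on replicates 1, 2 and 3, and at ZT6 it was 11.09, 16.94 and 19.32. At ZT3 it was 13.92, 11.70 and 11.28, and at ZT9 11.17, 13.08 and 10.57. Levels at the other times were 10.46, 10.95 and 10.45 at ZT12, 10.80, 15.54 and 11.84 at ZT15, 10.22, 10.96 and 12.61 at ZT18, and 14.77, 11.27 and 11.95 at ZT21. The arrays of ZT0 and of ZT6 each spanned most of the range seen over the whole day, while the 3 arrays of ZT12 lay together near its lower end. The time-point means ran from 10.62 ± 0.28 (SD, n = 3) at ZT12 to 15.78 ± 4.24 (SD, n = 3) at ZT6, a range of 5.17, and the time effect had an adjusted p of 0.423 by limma. The lowest array was at least 9.71 below the highest, since both Saa2 probe sets were at the highest value of the table on ZT0 replicate 1. Another 2 probe sets, annotated to Saa1 and Saa2 together and not used for the gene's level, also reached 19.93 on ZT0 replicate 1 and were 17.40 and 19.02 on ZT6 replicate 3. Saa1 and Saa2 are near-identical copies, so the array may not separate them.

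Lcn2 (chr2:32384637-32387739) encodes lipocalin 2, which binds bacterial siderophores and so withholds iron from bacteria. Its level was 14.35, 6.94 and 6.38 at ZT0, and 5.95, 8.23 and 9.98 at ZT6. At ZT21 it was 8.45, 6.05 and 5.85, and on the 15 arrays of the other 5 times it lay between 5.46 and 7.02. The 4 highest arrays, ZT0 replicate 1, ZT6 replicate 3, ZT21 replicate 1 and ZT6 replicate 2, came from 3 times of day, each of which also held an array at or below 6.38. The mean at ZT0 was 9.23 ± 4.45 and at ZT18 5.85 ± 0.34 (SD, n = 3), and the time effect had an adjusted p of 0.586 by limma. The mean over 10 probe sets understated the largest differences: on ZT0 replicate 1, 3 probe sets at the highest value stood at least 9.54, 12.03 and 13.88 above the median of the other arrays. Another 3 stood 11.01 to 14.33 above it, and 4 dim ones 1.05 to 2.63.

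Orm1 (chr4:63344556-63348163) and Orm2 (chr4:63362449-63365877) are neighbouring genes for orosomucoid, the alpha-1-acid glycoprotein that carries basic drugs and lipids in plasma. Orm2 was 19.83, 9.95 and 8.27 at ZT0, 8.96, 13.57 and 14.39 at ZT6, and 13.30, 8.08 and 8.87 at ZT21. On the 15 arrays of the other times it lay between 7.68 and 10.53. Its range over the arrays, at least 12.15, was the widest of the 10 members, and its lowest array was ZT9 replicate 3. The mean was 12.68 ± 6.25 at ZT0 and 8.18 ± 0.11 at ZT18 (SD, n = 3), with an adjusted p of 0.575 for the time effect by limma. Orm1 was high on every array, from 15.56 on ZT0 replicate 3 to 19.27 on ZT0 replicate 1, with a median of 16.83 and a second highest of 17.29 on ZT21 replicate 1. The highest and the lowest array of Orm1 thus belonged to the same time point. One Orm1 probe set was at the highest value on 23 arrays, whereas the dimmest of its 4 probe sets was 17.30 on ZT0 replicate 1 and 8.95 to 11.80 on the other 23. The orosomucoid copies are similar in sequence, so signal may be shared between them.

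Serpina3n (chr12:104406646-104414334) encodes a serine protease inhibitor related to human alpha-1-antichymotrypsin. It was 19.24, 16.75 and 16.27 at ZT0, 16.37, 17.50 and 18 at ZT6, and 17.60, 15.95 and 16.06 at ZT21. On the other 15 arrays it lay between 16.44 and 17.49, so the same arrays as for Orm2 and Lcn2 held its highest values, with a narrower spread (SD within time points 0.76). Its time effect had an adjusted p of 0.900 by limma. All 6 of its probe sets were higher on ZT0 replicate 1 than on any other array.

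Hp and Hpx encode haptoglobin and hemopexin, which bind free haemoglobin and haem in plasma and so protect against oxidative damage. Hp (chr8:109575128-109579172) lay between 16.95 (ZT3 replicate 2) and 17.60 (ZT18 replicate 3) with a median of 17.26, and time-point means differed by at most 0.17. One of its 6 probe sets had a mean of 5.97, below the background of 6.17. That probe set was 4.94 on ZT3 replicate 2 and 7.38 on ZT18 replicate 3, so the order of the arrays followed it in part. Hp had the narrowest range of the 10 members, but 3 of its 6 probe sets were at the highest value on all 24 arrays and could not show a rise. The single Hp probe set that reached it on 1 array only was 19.93 on ZT0 replicate 1 and 17.57 to 19.21 on the others, with ZT6 replicate 2 next highest. Hpx (chr7:105591611-105600116) ran from 18.69 (ZT21 replicate 3) to 19.72 (ZT0 replicate 1), with a median of 18.99. Here 6 of 11 probe sets were at the highest value on all 24 arrays, and the dimmest was 18.13 on ZT0 replicate 1 and 13.73 to 16.83 on the other 23. Leaving out every probe set that reached the highest value raised the SD within time points from 0.21 to 0.86 for Hp and from 0.23 to 0.71 for Hpx. For Hp only the probe set below background was then left, so 0.86 is the spread of a signal below background.

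Itih4 (chr14:30886476-30901986) encodes a heavy chain of the inter-alpha-trypsin inhibitor family. It was 19.37, 18.66 and 18.26 at ZT0 and 18.48, 18.80 and 19.02 at ZT6, and 18.04 to 18.65 on the other 18 arrays. Its lowest array was ZT12 replicate 3, and the mean at ZT12 was 18.21 ± 0.19 (SD, n = 3). The 24-h rhythm had an unadjusted p of 0.043 and an adjusted p of 0.237 by limma, with a fitted peak-to-trough range of 0.40 ± 0.15 (SE). Of its 22 probe sets, 17 reached the highest value, 11 of them on ZT0 replicate 1 alone. Without those 17 its SD within time points was 0.49, against 0.26 with them.

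Crp (chr1:172698056-172699966) encodes C-reactive protein, a pentraxin that binds phosphocholine on damaged cells and bacteria. It was the only member with no probe set at the highest value on any array. Its level was 16.47, 16.27 and 15.70 at ZT0 and 16.36, 16.30 and 16.13 at ZT3. It was 16.08, 15.55 and 15.53 at ZT6 and 15.80, 15.26 and 15.53 at ZT9. The 3 arrays of ZT3 lay above the 3 of ZT6 and of ZT9 without overlap, narrowly for ZT6 (16.13 against 16.08). These times were chosen after the values were seen, and the share of all genes that separate in this way was not counted. From ZT12 to ZT21 it lay between 15.72 and 16.28, and ZT0 replicate 1 exceeded the next array, ZT3 replicate 1, by little. The time-point means ran from 15.53 ± 0.27 at ZT9 to 16.26 ± 0.12 at ZT3 (SD, n = 3). Time held 52.7% of its variance, the largest share among the members, where the median gene had 34.4%, and neither test passed (adjusted p of 0.342 for time and 0.205 for the rhythm, limma).

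Hamp (chr7:30942368-30944029) encodes hepcidin, the hormone that makes cells degrade the iron exporter ferroportin. Its level was 14.12, 17.97 and 18.46 at ZT0 and 18.26, 17.52 and 17.47 at ZT6, and 17.98 to 18.50 on the other 18 arrays. ZT0 replicate 1 differed by -4.10 from the mean of the other ZT0 arrays, a lower bound on the gap because one probe set was at the highest value there, the opposite direction to the other 9 members. The arrays ZT6 replicates 2 and 3, high for Saa2, Lcn2 and Orm2, were the next lowest for Hamp, while ZT21 replicate 1 was not low, at 18.34. One of its 2 probe sets was at the highest value on the 23 other arrays and at 18.27 on ZT0 replicate 1. The second was 9.97 on ZT0 replicate 1 and at 15 or more, up to 17.07, on the others, so both gave the same direction. Hamp2, a close copy chosen after its values were seen, was 10.09 on ZT0 replicate 1, its highest array, and 7.02 and 7.86 on the other ZT0 arrays.

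**Figure D2:**
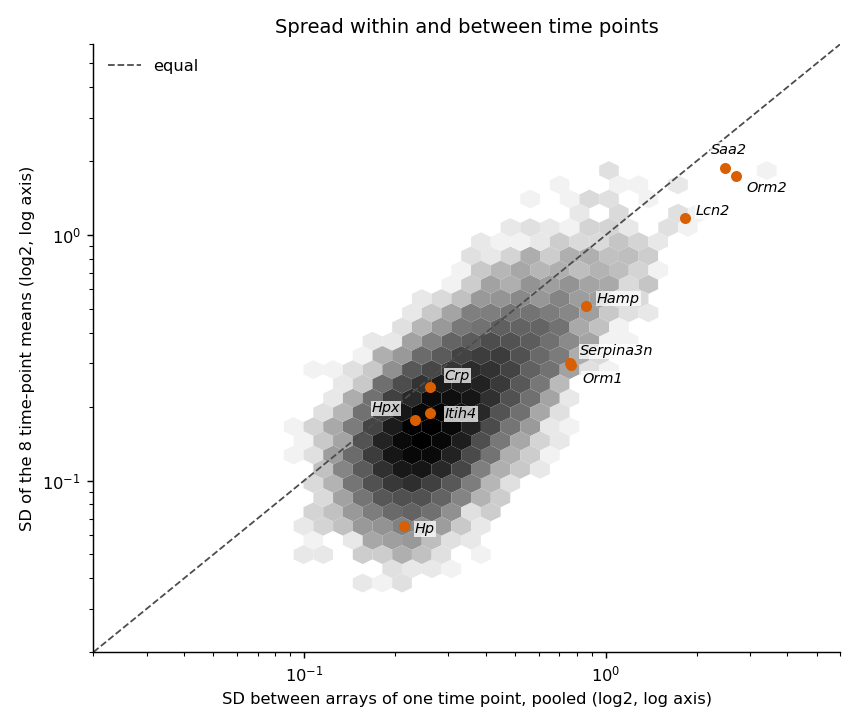
SD of the 8 time-point means against the pooled SD between arrays of one time point (both log2, log axes) for the genes of the table whose SDs lie within the axes, as grey hexagons shaded by number, with the 10 members as orange points and the line of equal values. Orm2, Saa2 and Lcn2 lie at the right edge with SDs between arrays of 1.83 to 2.70.

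Leaving out ZT0 replicate 1 narrowed but did not remove the spread. The SD within time points fell from 2.70 to 1.63 for Orm2 (24 genes then had a larger one), from 2.49 to 2.14 for Saa2 (8 genes) and from 1.83 to 0.98 for Lcn2 (153 genes). It fell from 0.86 to 0.21 for Hamp, but one of its 2 probe sets was at the highest value on all those arrays. The other alone had an SD of 0.41, a value added after seeing the data. The median gene had 0.27, but as a mean of probe sets (median 8), so the SD of a single probe set is not a like measure. The SD within time points fell from 0.76 to 0.53 for Serpina3n, 0.77 to 0.48 for Orm1 and 0.26 to 0.19 for Itih4. For Hp, Hpx and Crp it moved by at most 0.02. With every probe set that reached the highest value left out as well, the SD was 0.72 for Orm1 and 0.87 for Hp. Each of these rests on the gene's dimmest probe set, which for Hp lay below background. The SD was then 0.60 for Hpx, 0.56 for Serpina3n, 0.35 for Itih4 and 0.25 for Crp. For Orm2 and Lcn2 it was lower than with all probe sets, at 1.44 and 0.68. Their left-out probe sets had reached the highest value on ZT0 replicate 1 only. The lower SD thus compares different probe sets, none of them at the highest value on the arrays used. The SDs without ZT0 replicate 1 and without such probe sets were also added after seeing the data. On the 16 arrays of replicates 2 and 3, where both ZT6 arrays are high and neither ZT0 replicate 1 nor ZT21 replicate 1 is present, Lcn2 and Orm2 passed the time effect (adjusted p of 0.0126 and 0.00705 by limma). With all 24 arrays, or without any single one, no member passed.

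The highest value of the table, 19.93, was the upper end of the scale, and a level there is a lower bound. Of the 71 member probe sets, 43 came within 0.001 of it on at least 1 array, in 9 of the 10 genes, and 10 did so on all 24 arrays. On ZT0 replicate 1 there were 42 such probe sets, while the other 23 arrays had 12 to 20 each. For 23 of the 43 it was the only array at that value. Among the 51 probe sets that reached it on at most 1 array, ZT0 replicate 1 was above all others for 45. The 45 include the 23 that reached it on that array alone, which are above all others by definition. It was below all others for 2, one of Hamp and one of Itih4. The same share over all probe sets of the table was not counted.

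**Figure D3:**
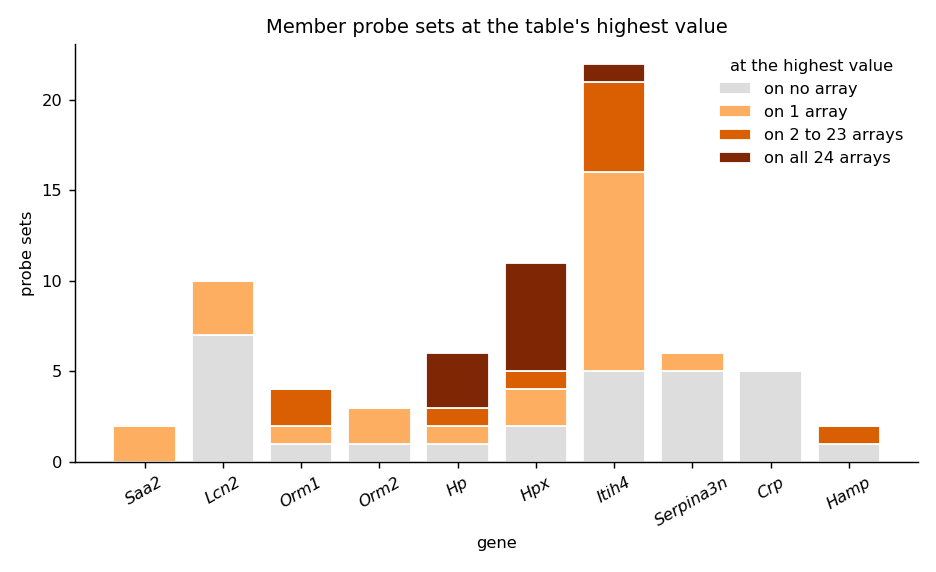
Number of probe sets of each gene, stacked by the number of arrays on which the probe set was at the table's highest value (none, 1, 2 to 23 or all 24). Hpx and Hp have 6 and 3 probe sets at that value on all 24 arrays, Itih4 has 11 of the 23 that reached it on 1 array, more than any other member, and Crp has none at it.

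By gene level, ZT0 replicate 1 was the highest of the 24 arrays for 8 of the 10 members and the lowest for Hamp, where over all genes it was the highest for 10.5% and the lowest for 10% (2324 genes). This array was singled out after its values were seen. Hp was the member for which it was neither. Of the 6 Hp probe sets, 5 were at the highest value on this array, and the other, with a mean below background, was 5.23. ZT6 replicate 2, ZT6 replicate 3 and ZT21 replicate 1 were each among the 4 highest arrays for 6 members. They were among the 4 lowest for 2, 2 and 0 members, and the shares over all genes were not counted. Over the 24 arrays, which share their sample and normalization, Pearson's r was 0.96 for Lcn2 and Orm2 (0.92 without ZT0 replicate 1, and Spearman's rho 0.66), 0.87 for Saa2 and Lcn2 (0.91) and 0.87 for Saa2 and Orm2 (0.83). For Hamp it was -0.91 with Lcn2 and -0.86 with Orm2, and -0.66 and -0.70 without that array, with a rho of -0.43 and -0.57. Crp had an r of 0.01 with Saa2 and 0.15 with Lcn2, and -0.22 and -0.25 without that array, so both signs turned. These 7 pairs of the 45 describe the arrays and were chosen after the values were seen.

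Markers of white blood cells moved with the members on ZT0 replicate 1. All 12 neutrophil, all 7 monocyte and all 11 Kupffer cell markers had their highest level on it, beside 10.5% of all genes. The mean of the neutrophil list was 9.94 there and 4.36 to 4.99 on the other arrays, where none of the 12 had a mean level above background. The monocyte list was 9.92 against 5.46 to 6.40, and the Kupffer cell list 11.48 against 7.45 to 9.43. Csf3r, the receptor for granulocyte colony-stimulating factor and the brightest of the neutrophil list, was 7.62 on ZT0 replicate 1 and 5.91 and 5.51 on the others of that time. S100a8, a calcium-binding protein of neutrophils chosen after its values were seen, was 12.49, 4.78 and 4.35. Cd5l, a secreted macrophage protein and the brightest of the Kupffer list, was 14.42, 9.42 and 10.81. No marker of T and NK cells (9 measured) or B cells (6) had its highest level there, and 1 of 7 endothelial, 2 of 8 stellate, 1 of 6 biliary, 0 of 6 adipocyte, 0 of 7 pancreatic acinar and 1 of 2 erythroid markers did. The hepatocyte list was 17.57 there and 17.36 to 17.57 on the others. The part of these cells in the members' values on that array was not tested, and in whole-tissue RNA a change in the number of cells of a type and a change in RNA per cell cannot be told apart.

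On ZT6 replicate 2, ZT6 replicate 3 and ZT21 replicate 1, also high for the members, the members' mean was 16.17, 16.75 and 16.14, where the median of the 23 arrays was 14.83. The neutrophil mean was 4.98, 4.84 and 4.94 there, above the median of 4.67 and below background. The highest neutrophil mean of the 23, which include these arrays, was 4.99 on ZT0 replicate 2. The monocyte mean was 5.92, 6.09 and 6.09 (median 5.81) and the Kupffer cell mean 8.30, 8.12 and 8.71 (median 8.16). Each of these differed from its median by less than on ZT0 replicate 1. The Kupffer cell mean was highest among the 23 on ZT9 replicate 2 (9.43), where the members' mean was 15.05.

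**Figure D4:**
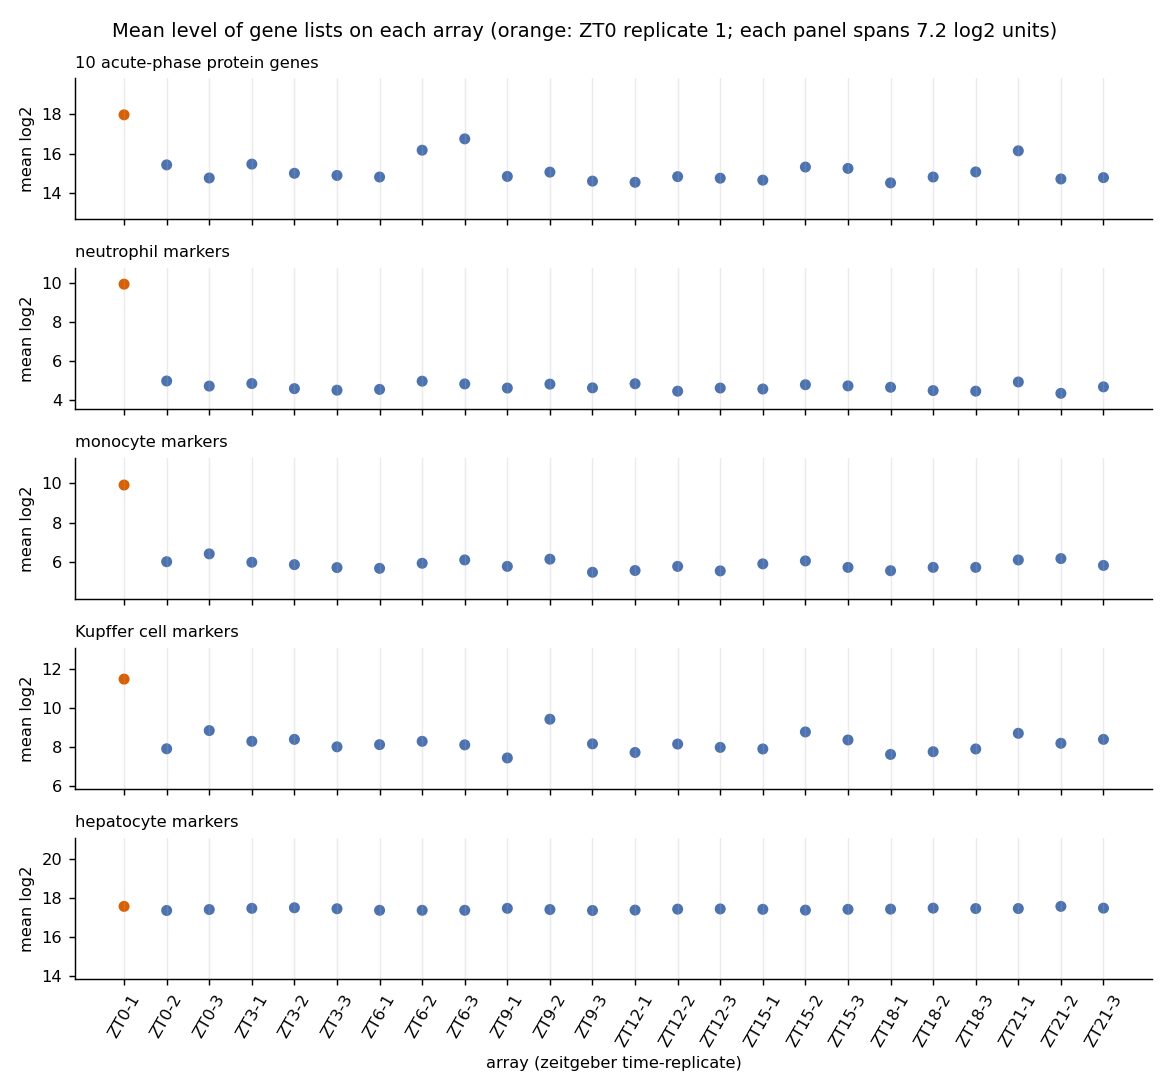
Mean level (log2) of the 10 members and of the neutrophil, monocyte, Kupffer cell and hepatocyte markers on each of the 24 arrays, ordered by zeitgeber time and replicate, with ZT0 replicate 1 in orange and each panel spanning the same 7.2 log2 units. The members stand at 17.98 on that array and above 16 on 3 others, while the neutrophil markers stand at 9.94 on it and below 5 elsewhere.

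Other acute-phase protein genes were examined as a list of 26, of which 24 were measured. With limma 0 of 24 had a time effect (1.98% of all genes) and 3 had a 24-h rhythm (6.88%), all clotting or copper proteins: the fibrinogen chains Fga (fitted range 0.71 ± 0.15 SE, adjusted p = 0.0108) and Fgg (0.42 ± 0.08, 0.00553), and ceruloplasmin, Cp (0.57 ± 0.13, 0.0158). ZT0 replicate 1 was the highest array for 17 of the 24 (70.8%, beside 10.5% of all genes). The median of its difference from the other ZT0 arrays was 1.83, against -0.04 over all genes. Of those, chosen after their values were seen, the third orosomucoid Orm3 was 15.20, 6.52 and 5.21 on ZT0 replicates 1, 2 and 3, and the pentraxin Apcs, serum amyloid P, was 18, 12.85 and 12.40. The metal-binding metallothioneins Mt1 and Mt2 were 16.25, 8.66 and 10.41, and 15.89, 7.92 and 8.30. Saa3, a serum amyloid made in macrophages as well, was 13.53, 7.53 and 7.78. Fgl1, a fibrinogen-like liver protein, was 19.54, 16.54 and 14.59.

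Of 12 negative acute-phase genes 0 had a time effect (1.98% of all genes) and 3 a 24-h rhythm (6.88%). ZT0 replicate 1 was the lowest array for 2 (10% of all genes) and the highest for 1 (10.5%), near the shares over all genes. Albumin, Alb, was 19.32, 19.35 and 19.32 at ZT0, and transthyretin, Ttr, was 16.49, 16.78 and 16.86. The rhythmic ones were the retinol carrier Rbp4 (adjusted p = 0.0465), the corticosteroid carrier Serpina6 (0.0435) and heparin cofactor Serpind1 (0.0171). The first 2 lost the call without any 1 of 19 and of 17 arrays, with p up to 0.101 and 0.106.

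Ligands lay mostly at background. Of 8 cytokine genes 2 had a mean level above it, and 0 had a time effect or a rhythm by limma (1.98% and 6.88% of all genes), with 1 each at an unadjusted p under 0.05. Il6, chosen after its values were seen, was 4.92, 4.51 and 4.20 at ZT0, below background on each. Il1b, chosen in the same way, was 8.57, 7.49 and 6.47 at ZT0, above background on each. ZT0 replicate 1 was the highest array for 2 ligands, Il6 and Il1b (10.5% of all genes), and the lowest for 1, Lif (10%). Il1a, the one with the smallest time p, had an adjusted p of 0.132, and passed without ZT6 replicate 1 (0.00277) and on the 16 arrays of replicates 2 and 3 (0.0203). Of 11 receptors 0 had a time effect and 3 a rhythm, beside 1.98% and 6.88% of all genes: the interleukin 1 receptor Il1r1 (fitted range 1.70 ± 0.36 SE, adjusted p = 0.0100), the tumour necrosis factor receptor Tnfrsf1a (0.83 ± 0.20, 0.0231) and the leukaemia inhibitory factor receptor Lifr (1.10 ± 0.29, 0.0470). Lifr lost the call without any 1 of 18 arrays, with p up to 0.111.

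Among 14 measured signal and transcription factors 2 had a time effect (1.98% of all genes) and 5 a rhythm (6.88%), and without single arrays these counts ran from 1 to 4 and from 3 to 6. Cebpb, a C/EBP factor of the acute phase, had a fitted range of 1.28 ± 0.16 (SE) with a peak near ZT9.85 and an adjusted p of 3.52e-05 for the rhythm and 0.0127 for time. Stat5b, which carries growth hormone signals, had a range of 1.52 ± 0.25 with p of 0.000866 and 0.0352, the second lost without any 1 of 14 arrays (up to 0.0747). Stat3, the mediator of interleukin 6, had a range of 1.11 ± 0.24 with a peak at ZT0.86 (adjusted p = 0.0114). The nuclear receptor Hnf4a passed the rhythm with 0.0281, and not without ZT9 replicate 2 (0.0609), ZT9 replicate 3 (0.0745), ZT12 replicate 1 (0.0549), ZT21 replicate 2 (0.0515) or ZT21 replicate 3 (0.0503). The fifth with a rhythm, named here to complete the count, was the kinase Tyk2 (0.0436), which lost the call without any 1 of 17 arrays, with p up to 0.0937. Of 14 feedback inhibitors and direct targets 0 had a time effect and 1 a rhythm (1.98% and 6.88% of all genes), the STAT3 inhibitor Socs3 (1.52 ± 0.37, adjusted p = 0.0264), whose mean level of 6.02 lay below background. It lost the call without ZT3 replicate 2 (0.0635), ZT15 replicate 3 (0.0549) or ZT18 replicate 1 (0.0550). Socs3 was 8.34 on ZT0 replicate 1, its highest array, and 5.85 and 5.62 on the others of that time. The rhythms of these regulators stood beside members for which none was called by the same fit. The fitted ranges of Saa2 (3.14 ± 1.37 SE), Orm2 (3.06 ± 1.41) and Lcn2 (1.95 ± 0.97) were nevertheless wider than those of these regulators. The other members' ranges ran from 0.0825 (Hp) to 0.715 (Hamp). A missing call is thus not the same as a small fitted range.

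The 20 genes of hepcidin control by bone morphogenetic proteins and iron held 1 time effect and 3 rhythms (1.98% and 6.88% of all genes). ZT0 replicate 1, where Hamp was lowest, was the lowest array for 6 of them (beside 10% of all genes) and the highest for 3 (beside 10.5%). The lowest ones included, chosen after their values were seen, the ligand Bmp6 (5.57, 7.15 and 7.51 at ZT0) and the SMAD target Id1 (5.69, 6.68 and 9.72). The co-receptor hemojuvelin, Hjv, was highest there (13.10, 12.05 and 11.62) and was rhythmic (1.48 ± 0.28 SE, adjusted p = 0.00445). The transferrin receptor Tfrc passed both tests (0.0434 for time, 0.0461 for the rhythm) and Smad1 the rhythm (0.0406). Without any 1 of 17, 20 and 12 arrays, respectively, these calls were lost, with p up to 0.146, 0.0891 and 0.0909.

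Receptors and partners of the member proteins were a list of 10, with 0 time effects and 3 rhythms, beside 1.98% and 6.88% of all genes: the hemopexin receptor Lrp1 (adjusted p = 0.0234), the endocytic receptor Lrp2 (0.0181), which lay below background, and the inter-alpha-trypsin heavy chain Itih1 (0.0201). ZT0 replicate 1 was the highest array for 7 (70.0%, beside 10.5% of all genes). Cd163, the macrophage receptor for haptoglobin with haemoglobin, chosen after its values were seen, was 10.18, 8.11 and 6.82 at ZT0. Of 9 measured glucocorticoid targets 2 had a time effect and 4 a rhythm, beside 1.98% and 6.88% of all genes: Fkbp5, a co-chaperone of the glucocorticoid receptor (range 2.49 ± 0.29 SE, adjusted p = 1.84e-05), the clock gene Per1 (3.27 ± 0.43, 7.94e-05), Tsc22d3 (1.75 ± 0.33, 0.00355) and Zbtb16 (2.35 ± 0.49, 0.00931). ZT0 replicate 1 was the highest array for 1 of the 9 and the lowest for 1, near the shares over all genes.

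**Figure D5:**
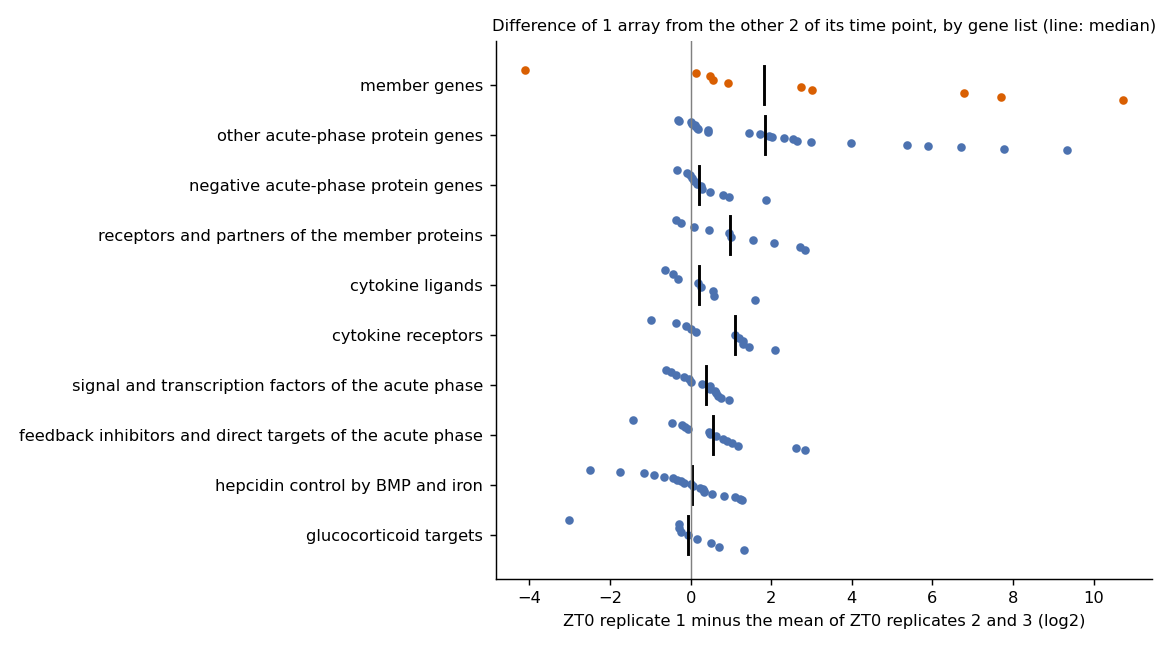
Difference (log2) of ZT0 replicate 1 from the mean of ZT0 replicates 2 and 3 for each measured gene, by gene list, with a black line at the list's median and the members in orange. Members run from -4.10 for Hamp to 10.72 for Orm2, both bounds because of probe sets at the highest value, the other acute-phase genes have a median of 1.83, and the negative acute-phase genes have a median of 0.21.

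The genes most like the members were found by Pearson's r with the mean of the 10 scaled profiles over 24 arrays, among genes above background. They were Fgl1 (r = 0.92, 0.86 without ZT0 replicate 1), the complement factor C4b (0.91, 0.83), the lipid flippase Atp11a (0.87, 0.73), Ambp (0.86, 0.73), the lubricating glycoprotein Prg4 (0.85, 0.69), fibronectin Fn1 (0.85, 0.71), Itih3 (0.85, 0.66) and the lipopolysaccharide-binding protein Lbp (0.85, 0.73). For single members the closest genes were Fgl1 for Saa2 (0.90) and Itih4 (0.90), Lcn2 and Orm2 for each other (0.96), Orm2 for Serpina3n (0.86), Fn1 for Orm1 (0.91), the chemokine Ccl6 for Hpx (0.83), Tmem19 for Crp (0.82) and the kinase Csnk1d for Hp (0.64). The level of Hp, and so its r with Csnk1d, varied in part with a probe set below background. The major urinary protein gene Mup20 was closest to Hamp with an r of 0.95. Without ZT0 replicate 1 that r was -0.00, so the likeness rests on 1 array.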

How the data were processed

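Levels were log2 values deposited by the authors, normalized across arrays by a method not given in the sources used here. The submitters' processing notes name limma, Affymetrix Power Tools 2.10.0 and mm10 without roles. Of 269479 probe sets, 233753 had 1 symbol and were averaged per gene (median 8), 5106 had several and 30620 had none. Symbols of 2189 genes were updated from RefSeq (GRCm38.p6), which gave positions and promoters.

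All 23152 genes were fitted on 24 arrays with limma 3.58.1 in R 4.3.3 (empirical Bayes; moderated F over time points, or over cosine and sine of 24 h), with Benjamini-Hochberg adjustment and a threshold of 0.05. The code was tested on simulated data. Members and gene lists were chosen with earlier results of these data known. From each list, up to 4 genes that passed a test were named, by smallest time p, or else the gene with the smallest p. Of the neutrophil and Kupffer lists, the brightest gene was named. Of genes correlated with the members, 8 were named, and 1 per member. Array number limits the precision. Alternatives covered scaling, probe-set summary, prior, replicate block and arrays left out.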

Additional observations from a re-analysis of the deposited data

How the results depend on the processing

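Of 698 tests of single members under 35 alternatives, 2 changed side of the threshold, both on the 16 arrays of replicates 2 and 3, where the count of members with a time effect was 2. For Saa2, no value was possible with the probe sets at the highest value left out. The genes with a time effect (458) numbered 122 with the brightest probe set, 222 with the median probe set, 704 with dim genes left out, and 295 to 579 without single arrays (295 without ZT9 replicate 3 and 299 without ZT18 replicate 3). Those with a rhythm (1592) numbered 760, 907 and, on the 16 arrays, 765, and 1316 to 1730 without single arrays. The members' median SD within time points (0.76) was 0.28 on the 16 arrays, 0.29 with each gene's brightest probe set, 0.33 without the ZT0 arrays, and 0.36 (without ZT0 replicate 1) to 0.79 without single arrays. Member probe sets at the highest value (43) numbered 20 on the 16 arrays and 20 without the ZT0 arrays, and 20 (without ZT0 replicate 1) to 43 without single arrays. With the brightest probe set the rhythms of Fga, Fgg, Cp, Il1r1, Stat3, Socs3 and Lrp1, among others, were lost. Over the 9 other pathway lists, leaving out single arrays also added calls: the count of time effects rose from 0 to 1 for ligands, feedback inhibitors and other acute-phase genes, and from 2 to 4 for glucocorticoid targets.

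Same-numbered arrays did not deviate together (median r of -0.03, -0.04 and -0.03), so the numbers are not taken as pairs. The replicate block gave 322 time effects and 1435 rhythms, with 0 and 0 members. The cause of these changes was not tested.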
